A study of Rattus norvegicus with 12 samples.

Results

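The tristetraprolin family was followed in cultured rat astrocytes given PT109B, by the 3 genes whose symbols are Zfp36, Zfp36l1 and Zfp36l2, out of 9721 genes in the deposited table. The members were picked by symbol, not by how they changed, and all 3 passed the filter on low counts. Bulk RNA-seq was made from astrocytes taken from the midbrain of newborn SD (Sprague-Dawley) rats, labelled WT, kept as primary cells and grown in medium with 10% fetal bovine serum. Cells had 10 µM PT109B, a small molecule named only by its code, for 1.5, 3 or 6 h, and the control cells are those labelled 0 h, with no vehicle described in the labels. Each of the 4 groups held 3 libraries with total counts between 9368972 and 12498050. Nothing in the labels says that libraries with 1 label are separate cultures, so p-values measure only how these samples spread, which may be technical.

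Proteins of this family carry a pair of CCCH zinc fingers that bind AU-rich elements in the 3′ untranslated regions of short-lived mRNAs. They bring the CCR4-NOT deadenylase to the bound mRNA, the poly(A) tail is shortened, and the mRNA is then decapped or degraded by the exosome. Zfp36 encodes tristetraprolin, the founding member, whose loss in mice leads to excess tumour necrosis factor. Zfp36l1 and Zfp36l2 encode the related proteins BRF1 and BRF2, known for roles in vessel, blood cell and oocyte development in mice. Zfp36 is itself an immediate early gene whose own mRNA holds AU-rich elements, and p38 and MK2 kinases phosphorylate tristetraprolin, after which 14-3-3 proteins bind it.

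The cultures held RNA of other cell types, and libraries with the same label differed in it. The 10 astrocyte markers tested summed to between 5770 and 11700 CPM (the count per 1e6 counts, on TMM-scaled library sizes) in all libraries, with none at 0. The 20 microglia markers summed to 520, 519 and 8720 CPM in the 3 libraries at 1.5 h, and to between 5430 and 8170 CPM in the other 9 libraries. The 7 fibroblast and meningeal markers moved the other way, with 5440, 5660 and 1320 CPM at 1.5 h and between 1030 and 1880 CPM elsewhere. The 20 mitosis genes summed to 172, 153 and 1340 CPM at 3 h and to 1270, 127 and 147 CPM at 6 h, against 2210, 2340 and 1710 CPM in control cells. Replicate 3 at 1.5 h, replicate 3 at 3 h and replicate 1 at 6 h therefore stand apart from the others of their groups. These 3 were nearest to control in microglia and fibroblast markers at 1.5 h and in mitosis genes at 3 and 6 h. In control libraries the microglia markers summed to 6650, 6430 and 8170 CPM and the fibroblast and meningeal markers to 1250, 1590 and 1260 CPM. Fits without these 3 thus compare with control the libraries that differ more from it in these markers. Main results are given with and without these 3 libraries. In bulk RNA, fewer cells of a type and less RNA per cell cannot be told apart.

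Upstream sequences are shown for Zfp36, which rose, and for Zfp36l2, which did not pass against control in the fit of all 12 libraries. They are shown because the genes closest to Zfp36 in pattern include transcription factors with known binding letters. The 250 bases before the annotated gene start, from RefSeq on the GRCr8 build, are given 5′ to 3′ on the gene's strand, and capitals mark matches to the motifs searched.
Zfp36: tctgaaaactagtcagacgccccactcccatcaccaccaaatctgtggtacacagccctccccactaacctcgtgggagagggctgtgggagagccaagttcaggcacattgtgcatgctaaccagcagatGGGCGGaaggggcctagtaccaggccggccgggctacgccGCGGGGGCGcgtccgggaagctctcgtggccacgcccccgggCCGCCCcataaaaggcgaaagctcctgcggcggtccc
Zfp36l2: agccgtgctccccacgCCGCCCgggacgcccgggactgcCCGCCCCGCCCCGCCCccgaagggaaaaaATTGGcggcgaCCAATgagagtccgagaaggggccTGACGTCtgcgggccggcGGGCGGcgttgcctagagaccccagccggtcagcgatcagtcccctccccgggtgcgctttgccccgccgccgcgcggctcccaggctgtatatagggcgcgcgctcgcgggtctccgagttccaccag
The Zfp36 window, at chr1:92799109-92799358 on the minus strand, has a GC content of 65.2%, and the Zfp36l2 window, at chr6:16242372-16242621 on the plus strand, has 73.6%, against a median of 51.2% over 33469 promoters. The RefSeq window of Zfp36l1, at chr6:104668691-104668940 on the minus strand with 50.4% GC, lies inside a longer gene record (104663396 to 104669815) and its letters are not shown.

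Each motif was searched on both strands, and its share is that of all 33469 promoter windows of 250 bases. The EGR element GCGGGGGCG, found in 2.45% of windows, has 1 match in Zfp36, which begins 79 bases before the start, and none in the other members. The cAMP response element core TGACGTC, in 2.8% of windows, has 1 match in Zfp36l2, beginning 147 bases before the start. The AP-1 letters TGANTCA, in 6.34% of windows, occur once in the Zfp36l1 window. That match begins 152 bases before the start used for the window, which lies inside the longer gene record. The GC box GGGCGG, in 30.5% of windows, occurs at 2 places in Zfp36 and at 5 in Zfp36l2, where some neighbours share bases. The Zfp36l1 window also holds a TATA box (TATAAA, 12.9% of windows) that shares a base with a CCAAT box (34% of windows), and Zfp36l2 holds 2 CCAAT boxes. The STAT letters TTCNNNGAA, in 7.67% of windows, were not found in the 3 windows. The serum response element core was searched only as 1 fixed string of letters, which occurs in 10 windows (0.0299%) and in none of these 3. Other forms of that core were not searched, so this search cannot tell whether the 3 windows hold a serum response element. The motifs were chosen with the sequences in view, and a match is a description of the letters.

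Zfp36 rose at all 3 times after PT109B and was highest at 1.5 h. The 3 control libraries held 48.6, 41 and 60.6 CPM, those at 1.5 h held 151, 152 and 191 CPM, those at 3 h held 118, 117 and 78.1 CPM, and those at 6 h held 99, 105 and 99.5 CPM. Every treated library lay above every control library, and every library at 1.5 h lay above every library at 3 or 6 h. Zfp36 averaged 164 ± 22.6 CPM at 1.5 h, against 50.1 ± 9.86 CPM in control cells (SD, n = 3 each), a log2 fold change of 1.72 ± 0.19 (SE; edgeR quasi-likelihood test, adjusted p = 0.000663), or 3.29-fold. At 3 h it averaged 104 ± 22.8 CPM, 2.09-fold the control level (log2 1.06 ± 0.19, edgeR adjusted p = 0.00364). At 6 h it averaged 101 ± 3.32 CPM, 2.02-fold the control level (log2 1.02 ± 0.19, edgeR adjusted p = 0.00284). These comparisons share the control libraries. Among the 9491 genes tested, 3.32% passed an adjusted p of 0.05 in either direction at 1.5 h, 21.4% at 3 h and 30.5% at 6 h, all against control.

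Zfp36 was lower at 3 and 6 h than at 1.5 h. At 3 h it was below its 1.5 h level by a log2 difference of -0.65 ± 0.19 (edgeR adjusted p = 0.0345), in a comparison in which 20.3% of genes passed. With the replicate number as a block the difference was the same and the adjusted p was 0.0625, and genes called fell to 1243, against 1929 without the block. That call was also lost without control replicate 1, without replicate 1 or 2 at 1.5 h and without replicate 1 or 2 at 3 h, with adjusted p up to 0.0797. At 6 h Zfp36 was below its 1.5 h level by -0.7 ± 0.19 (edgeR adjusted p = 0.0143; 37.6% of genes passed). Between 6 h and 3 h the difference was -0.05 ± 0.19 (adjusted p = 0.938), and 4.05% of genes passed. The order of the means was thus 1.5 h, 3 h, 6 h and control, in which 3 h and 6 h did not differ beyond their spread.

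At 1.5 h Zfp36 was above all controls in the 2 libraries with low microglia markers and in the 1 library with high ones. Without the 3 libraries that stand apart, 59.2%, 70.9% and 75.1% of all genes passed at 1.5, 3 and 6 h against control. There the log2 change of Zfp36 was 1.6, 1.17 and 0.95, each past the threshold in edgeR. With only those 3 libraries as the treated samples, 1 per time, it was 1.93, 0.64 and 0.98, and the value at 3 h did not pass (edgeR adjusted p = 0.0599).

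**Figure D1:**
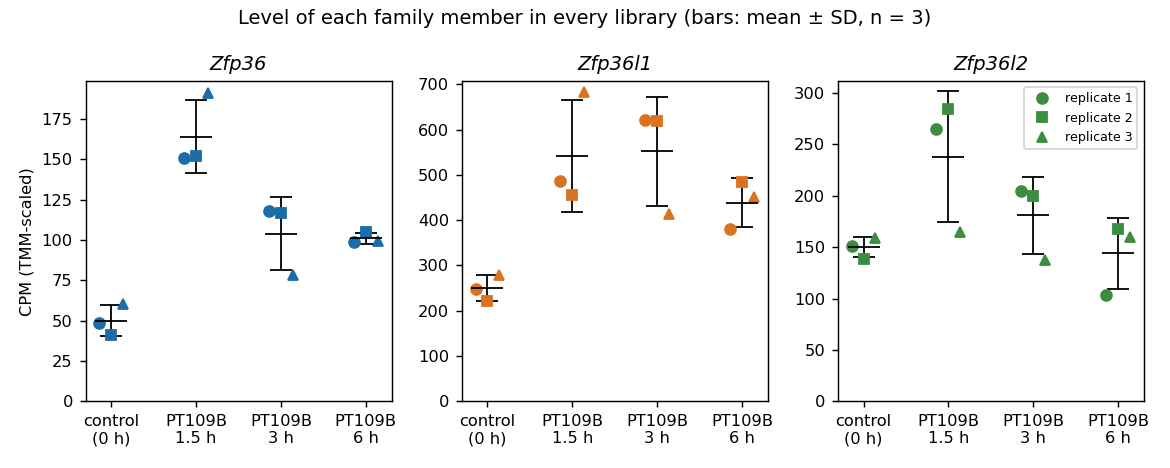
CPM of Zfp36, Zfp36l1 and Zfp36l2 (y axis, TMM-scaled) in every library by group (x axis: control and 1.5, 3 and 6 h with PT109B), with 1 symbol per replicate number and black bars for mean ± SD (n = 3). Zfp36 libraries at 1.5 h sit between 151 and 191 CPM and controls between 41 and 60.6 CPM, whereas Zfp36l2 libraries of treated and control cells overlap at 3 and 6 h.

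Zfp36l1 also rose at all 3 times, with means at 1.5 and 3 h that did not differ beyond their spread. Its level was 249, 221 and 280 CPM in control libraries, 486, 455 and 684 CPM at 1.5 h, 622, 620 and 413 CPM at 3 h, and 380, 484 and 452 CPM at 6 h. No treated library reached down into the control range, while the ranges at the 3 treated times overlap one another. The mean was 541 ± 124 CPM at 1.5 h, 552 ± 120 CPM at 3 h and 439 ± 53.2 CPM at 6 h, set against 250 ± 29.2 CPM in control cells (SD, n = 3 each). The log2 fold changes were 1.11, 1.14 and 0.81, each ± 0.21 (edgeR adjusted p = 0.0168, 0.00436 and 0.0146). Differences between treated times were 0.03 ± 0.21 for 3 h against 1.5 h, -0.33 ± 0.21 for 6 h against 3 h and -0.3 ± 0.21 for 6 h against 1.5 h, none of which passed (edgeR adjusted p = 0.93, 0.442 and 0.26). The value for 3 h against 1.5 h depended on the libraries kept, since replicate 3 had the highest level at 1.5 h and the lowest at 3 h. It was 0.34 without the 3 libraries that stand apart (edgeR adjusted p = 0.00566), where 6655 genes passed, against 1929 with all libraries. With those 3 alone as the treated samples it was -0.74.

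The number of libraries limits these Zfp36l1 calls. At 1.5 h the call was lost without control replicate 1, 2 or 3 (edgeR adjusted p = 0.0819, 0.0943 and 0.0516). At 6 h it was lost without control replicate 1 or 2, or without replicate 2 or 3 at 6 h (adjusted p = 0.0515, 0.0627, 0.0754 and 0.0652). Without the 3 libraries that stand apart the log2 changes were 0.91, 1.25 and 0.82 at 1.5, 3 and 6 h. All passed, where 59.2%, 70.9% and 75.1% of all genes did. With those libraries alone as the treated samples the log2 changes were 1.45, 0.71 and 0.6.

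In the fit of all 12 libraries, Zfp36l2 did not pass the test against control at any time. Control libraries held 151, 139 and 159 CPM, those at 1.5 h 265, 284 and 165 CPM, those at 3 h 205, 200 and 138 CPM, and those at 6 h 104, 168 and 160 CPM. All 3 libraries at 1.5 h lay above the control range, replicate 3 by little, and the groups overlap at 3 and 6 h. The means were 238 ± 63.8 CPM at 1.5 h, 181 ± 37.6 CPM at 3 h and 144 ± 34.6 CPM at 6 h, set against 150 ± 9.91 CPM in control cells (SD, n = 3 each). The log2 fold changes were 0.67, 0.27 and -0.06, each ± 0.24 (edgeR adjusted p = 0.156, 0.415 and 0.876). Zfp36l2 has an annotated pseudogene, Zfp36l2-ps1, in the RefSeq table, and how the counting shared reads between near-identical copies is not given, so its counts are uncertain in that respect.

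The value of Zfp36l2 depended on which libraries were kept. Without replicate 3 at 1.5 h, the library with high microglia markers, the change at 1.5 h was 0.87 and passed (edgeR adjusted p = 0.0128). Without all 3 libraries that stand apart it was 0.87 at 1.5 h, 0.38 at 3 h and 0.04 at 6 h. The first 2 passed (edgeR adjusted p = 8.31e-08 and 0.00042), in a setting where 59.2% and 70.9% of all genes passed at those times. With those 3 libraries alone as the treated samples the log2 change was 0.14, -0.13 and -0.53 at 1.5, 3 and 6 h. Between 6 h and 1.5 h, Zfp36l2 was lower at 6 h, with a log2 difference of -0.73 ± 0.24 (edgeR adjusted p = 0.0366), with overlapping ranges. That call was lost without control replicate 1, 2 or 3, replicate 1 or 2 at 1.5 h or replicate 1 at 6 h, which gave differences between -0.93 and -0.54. The part that the cell mixture has in these values was not tested.

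Per transcript length, Zfp36l1 was the most abundant member in every library. The deposited FPKM averaged 68.9 ± 7.76 for Zfp36l1, 31.8 ± 1.98 for Zfp36l2 and 20.8 ± 4 for Zfp36 in control cells (SD, n = 3). The sum of the 3 members was 121, 108 and 135 FPKM in control libraries, 241, 238 and 285 FPKM at 1.5 h, 201, 205 and 163 FPKM at 3 h and 160, 176 and 168 FPKM at 6 h. All treated sums exceed all control sums, and the 1.5 h sums exceed all others. The mean sum was 255 ± 26.4 FPKM at 1.5 h, 190 ± 23.3 at 3 h and 168 ± 7.75 at 6 h, set against 121 ± 13.7 in control cells. FPKM depends on the total of each library and was not TMM-scaled, so fold changes read from it differ from those in CPM.

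The share of each member in the family sum is given as a description. With 3 libraries a group, the exact permutation test used for ratios between members could not pass, and no other test of them was run. Zfp36 made up 25.4% ± 0.694 of the summed FPKM at 1.5 h, 18.5% ± 0.0464 at 3 h and 21.9% ± 2.23 at 6 h, and 17% ± 1.36 in control cells (SD, n = 3 each). Zfp36l2 made up 19.4% ± 6.81, 16.5% ± 0.215 and 15.7% ± 2.14 at those times, and 26.3% ± 1.35 in control cells. At 3 h the ratio of Zfp36l1 to Zfp36l2 was 3.93, 4.01 and 3.89, against 2.14, 2.06 and 2.28 in control cells. The closeness of the 3 ratios at 3 h holds although replicate 3 had lower levels of both genes.

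Ratios between members cancel the scaling of a library and were compared by exact two-sided permutation tests, whose smallest p with 3 against 3 libraries is 0.1. At 1.5 h the ratio of Zfp36 to Zfp36l1 was 0.468, 0.504 and 0.42, against 0.294, 0.279 and 0.326 in control cells, a log2 difference of 0.63 (exact p = 0.1). At 3 h that ratio was 0.286, 0.284 and 0.285, inside the control range (log2 difference -0.07, exact p = 0.4). The ratio of Zfp36 to Zfp36l2 was above all controls at each time, with log2 differences of 1.09, 0.8 and 1.12 (exact p = 0.1 each). For Zfp36l1 to Zfp36l2 the log2 differences were 0.46, 0.87 and 0.89 (exact p = 0.3, 0.1 and 0.1). Over the 18 such comparisons the adjusted p of those at 0.1 was 0.164, so none could pass by this test at this number of libraries.

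**Figure D2:**
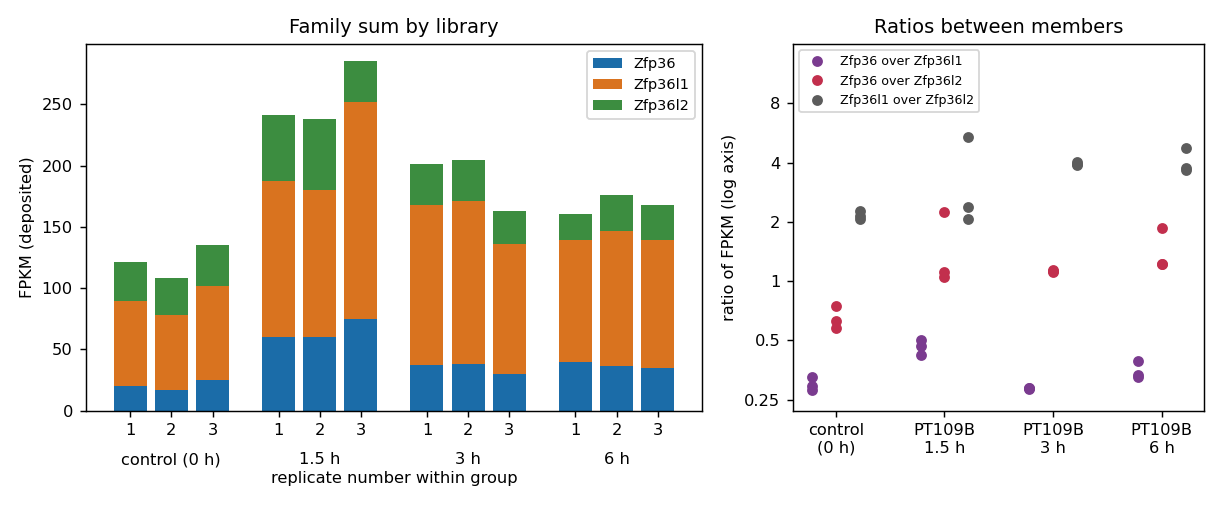
Left, deposited FPKM of the 3 members stacked for each library (x axis: replicate number within each group), and right, ratios of FPKM between members on a log axis, with 1 point per library. The stacks reach 238 to 285 FPKM at 1.5 h and 108 to 135 FPKM in control cells, and the ratio of Zfp36l1 to Zfp36l2 is near 4 at 3 h.

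The genes whose levels most resembled those of Zfp36 over the 12 libraries included several immediate early genes and Zfp36l1. Likeness was the Pearson correlation of log2 CPM over 12 libraries that share groups and cell mixture, among 9183 genes with a mean of at least 2 CPM in their highest group, and is given as a description. The 8 highest were Egr1 (r = 0.981) and Egr2 (0.958), zinc finger transcription factors, Trib1 (0.963), a pseudokinase, Ier2 (0.951), Fosb (0.925), an AP-1 subunit, Arrdc3 (0.919), an arrestin-domain protein, Atf3 (0.907), a stress-induced transcription factor, and Zfp36l1 (0.905). Zfp36l2 ranked at place 506, with r = 0.549.

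The like genes differed in how far they moved. Egr1 had 26.5, 29.8 and 44.8 CPM in control cells, 1100, 1120 and 1010 CPM at 1.5 h, 389, 362 and 130 CPM at 3 h and 193, 245 and 240 CPM at 6 h. Trib1 had 49.8, 54.1 and 61.3 CPM in control cells, 320, 311 and 359 CPM at 1.5 h, 282, 269 and 129 CPM at 3 h and 124, 152 and 158 CPM at 6 h. Both share with Zfp36 the highest level at 1.5 h and a replicate 3 at 3 h that lies below the other libraries of that time. The log2 changes at 1.5 h were 5 ± 0.41 for Egr1, 5.56 ± 0.47 for Egr2, 6.74 ± 0.74 for Fosb, 2.58 ± 0.26 for Trib1 and 2.7 ± 0.23 for Ier2, all larger than the 1.72 of Zfp36. Atf3 had its highest mean at 3 h, 300 ± 156 CPM, with 396, 385 and 120 CPM in the libraries. The call of Fosb at 6 h (2.63 ± 0.7) was lost without control replicate 1 or 2, with edgeR adjusted p up to 0.0695. Fosb held only 0.856, 0.428 and 1.32 CPM in control cells, so its fold changes rest on few counts. Its calls at 1.5 and 6 h were also lost in limma-voom.

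**Figure D3:**
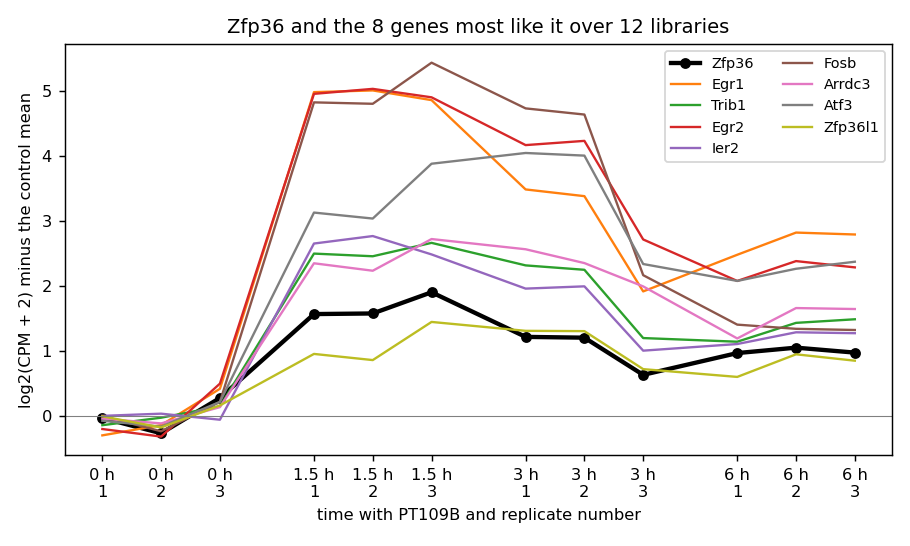
Levels of Zfp36 (black, with points) and the 8 genes most like it, as log2(CPM + 2) minus the mean of the control libraries (y axis), in the 12 libraries ordered by time and replicate number (x axis). All lines are highest at 1.5 h or 3 h, and the line of Zfp36 is flatter than those of Egr1, Egr2 and Fosb.

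Genes of mRNA decay showed gene by gene changes in both directions. The list also holds nonsense-mediated decay, which is not among the steps given above for the family. Of 70 listed genes of deadenylation, decapping, the exosome and nonsense-mediated decay, 50 were in the table and all of these were tested. At 1.5 h 2 rose and 5 fell (14% of the list), against 3.32% of all genes, 1.95% higher and 1.37% lower. At 3 h 4 rose and 10 fell (28%), against 21.4% of all genes, 13.5% higher and 7.94% lower, and at 6 h 8 rose and 9 fell (34%), against 30.5%, 18.7% higher and 11.8% lower. The median log2 change of the 50 genes was -0.11, -0.1 and -0.07 at the 3 times, beside medians of -0.01, -0.03 and -0.02 over all genes tested. Without the 3 libraries that stand apart, 28, 33 and 37 of the 50 passed, while 59.2%, 70.9% and 75.1% of all genes did. Scaled by library size alone, the split at 3 h was 1 higher and 25 lower, and the median of all genes then moved by -0.31.

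Among 19 tested genes of deadenylation, the step that the family triggers, Btg2 had the largest change at 1.5 and 3 h, and Tnrc6c at 6 h. Btg2, an antiproliferative protein that activates the CCR4-NOT deadenylases, had 31.8, 32.3 and 39 CPM in control cells, 159, 179 and 198 CPM at 1.5 h, 95.5, 94.3 and 60.6 CPM at 3 h and 52, 46.7 and 48.6 CPM at 6 h. Its treated libraries lay above all controls at each time, with the highest level at 1.5 h as for Zfp36. The log2 changes were 2.38 ± 0.18 (edgeR adjusted p = 8.23e-05), 1.28 ± 0.18 (0.000845) and 0.52 ± 0.17 (0.0445). The call at 6 h was lost when any 1 of 10 libraries was left out, all but replicate 3 at 1.5 h and replicate 3 at 3 h (adjusted p up to 0.139).

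Tob1, a relative of Btg2 with the same partner, averaged 98 ± 6.64 CPM at 1.5 h, against 55.6 ± 1.59 CPM in control cells (log2 0.82 ± 0.18, edgeR adjusted p = 0.0377). With the replicate block its edgeR adjusted p was 0.0787. Without any 1 control replicate or replicate 1 or 2 at 1.5 h it was up to 0.143. The Tob1 call was also lost with the microglia marker level as a covariate. Pan3, the regulatory subunit of the Pan2-Pan3 deadenylase, fell to 23.4 ± 1.63 CPM at 3 h and 26 ± 4.63 CPM at 6 h, against 46 ± 4.81 CPM in control cells (log2 -0.97 and -0.82, each ± 0.15; edgeR adjusted p = 0.00147 and 0.00235). Cnot2, a subunit of CCR4-NOT, was lower at 3 h, with 75.8 ± 6.35 CPM against 103 ± 1.52 CPM in control cells (log2 -0.45 ± 0.09, edgeR adjusted p = 0.00834). Tnrc6c, a GW182 protein that links Argonaute to the deadenylases, rose at 6 h to 105 ± 19.4 CPM, against 55.2 ± 5.23 CPM (log2 0.93 ± 0.16, edgeR adjusted p = 0.00206).

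Cnot1, the scaffold of CCR4-NOT to which tristetraprolin binds, passed at 6 h alone. It had 343, 348 and 322 CPM at 1.5 h and 315, 312 and 256 CPM at 3 h, against 355, 352 and 380 CPM in control cells (log2 -0.1 ± 0.12 and -0.3 ± 0.12, edgeR adjusted p = 0.642 and 0.0905). At 6 h it was lower by -0.37 ± 0.12 (edgeR adjusted p = 0.0376), a call lost without any 1 control replicate, replicate 1 or 2 at 1.5 h or replicate 1 at 6 h (adjusted p up to 0.113).

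Decapping genes, 13 tested, had 2 lower at 1.5 h, 1 higher and 1 lower at 3 h, and 3 higher and 1 lower at 6 h, where 3.32%, 21.4% and 30.5% of all genes passed. Eif4enif1, which carries the cap-binding protein eIF4E to sites of decay, had 44.8, 37.9 and 38.8 CPM at 1.5 h, against 69.6, 68.5 and 69.3 CPM in control cells (log2 -0.77 ± 0.12, edgeR adjusted p = 0.00466). In a fit of these 2 groups with the replicate block its adjusted p was 0.059. Edc3, an enhancer of decapping, had 31.7, 31.3 and 31.9 CPM at 1.5 h, against 54.4, 52.1 and 54 CPM (log2 -0.76 ± 0.13, edgeR adjusted p = 0.0104). The Edc3 call was lost without control replicate 1 or 3 or replicate 1 or 2 at 1.5 h, with adjusted p up to 0.0567, and in the fit of 2 groups with the block (0.0522). In neither gene did the ranges at 1.5 h reach the control range, and this includes the library with high microglia markers.

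The decapping cofactors Dcp1a and Dcp1b were higher at 6 h. Dcp1a averaged 76.9 ± 13.9 CPM at 6 h, against 46.9 ± 1.92 CPM in control cells (log2 0.71 ± 0.15, edgeR adjusted p = 0.00479), and Dcp1b averaged 18.2 ± 2.27 CPM, against 9.68 ± 1.15 CPM (log2 0.91 ± 0.19, edgeR adjusted p = 0.00583). With only the 3 libraries that stand apart as treated samples, the Dcp1b change at 6 h was 0.69 and did not pass (adjusted p = 0.0539). At 3 h Dcp1b averaged 12.4 ± 1.27 CPM without a call. Lsm14a, a protein of P-bodies, was lower at 6 h, with a log2 change of -0.56 ± 0.12 (edgeR adjusted p = 0.00533). Xrn1, the 5′ to 3′ exonuclease, was lower at 3 h, at 37.3 ± 2.55 CPM against 52.4 ± 2.12 CPM in control cells (log2 -0.49 ± 0.1, edgeR adjusted p = 0.0061). Ddx6, a helicase of P-bodies, averaged 140 ± 4.36, 152 ± 10.3 and 149 ± 5.74 CPM at 1.5, 3 and 6 h, set against 161 ± 10.2 CPM, and passed at none of them.

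Of 8 exosome genes tested, none passed at 1.5 h, 2 were lower at 3 h and 2 were higher at 6 h, where 3.32%, 21.4% and 30.5% of all genes passed, so the counts at 3 and 6 h are near the shares of all genes. At 1.5 h edgeR gave 1 of them an unadjusted p below 0.05, and DESeq2 called 1. Exosc1, a cap subunit of the exosome, averaged 36.3 ± 0.722 CPM at 6 h, against 24 ± 1.48 CPM in control cells (log2 0.6 ± 0.13, edgeR adjusted p = 0.00717). Exosc10, its nuclear exonuclease, averaged 91.2 ± 10.7, 75 ± 4.1 and 87.2 ± 8.57 CPM at the 3 times, set against 76.8 ± 5.41 CPM, without a call.

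Nonsense-mediated decay, which removes mRNAs with early stop codons, had 10 genes tested, of which 2 fell at 1.5 h, 4 fell and 1 rose at 3 h, and 3 fell and 1 rose at 6 h, where 3.32%, 21.4% and 30.5% of all genes passed. Upf2, the adaptor that joins Upf1 to the exon junction complex, had 56.7, 54.3 and 68.3 CPM in control cells, 34.2, 30.7 and 29.7 CPM at 1.5 h, 18.3, 17.2 and 21.6 CPM at 3 h and 31.1, 22.5 and 24.6 CPM at 6 h. Every treated library was below every control library, with the lowest levels at 3 h. The log2 changes were -0.92, -1.65 and -1.2, each ± 0.16 (edgeR adjusted p = 0.00956, 0.000123 and 0.000485). The call at 1.5 h was lost without control replicate 3 or replicate 2 at 1.5 h (edgeR adjusted p up to 0.054). It was also lost in the fit of 2 groups with the replicate block (0.0717) and with the microglia marker level as a covariate.

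The Upf3 pair, which tie Upf2 to the exon junction complex, were lower at the 2 later times. Upf3b averaged 18 ± 1.19 CPM at 3 h and 13.6 ± 2.48 CPM at 6 h, against 32.1 ± 4.17 CPM in control cells (log2 -0.83 and -1.24, each ± 0.16; edgeR adjusted p = 0.00573 and 0.000471). Upf3a averaged 24.6 ± 3.15 and 23.2 ± 3.85 CPM, against 40.3 ± 3.07 CPM (log2 -0.71 and -0.8, each ± 0.16; edgeR adjusted p = 0.0118 and 0.00425). Its 3 h call was lost without control replicate 2 (edgeR adjusted p = 0.0511). At 3 h its libraries held 24.4, 21.6 and 27.8 CPM, the last in the library that stands apart. Smg1, the kinase of Upf1, averaged 140 ± 10.3, 124 ± 23.3 and 150 ± 8.91 CPM at the 3 times, set against 148 ± 16.7 CPM in control cells, and passed at none of them.

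**Figure D4:**
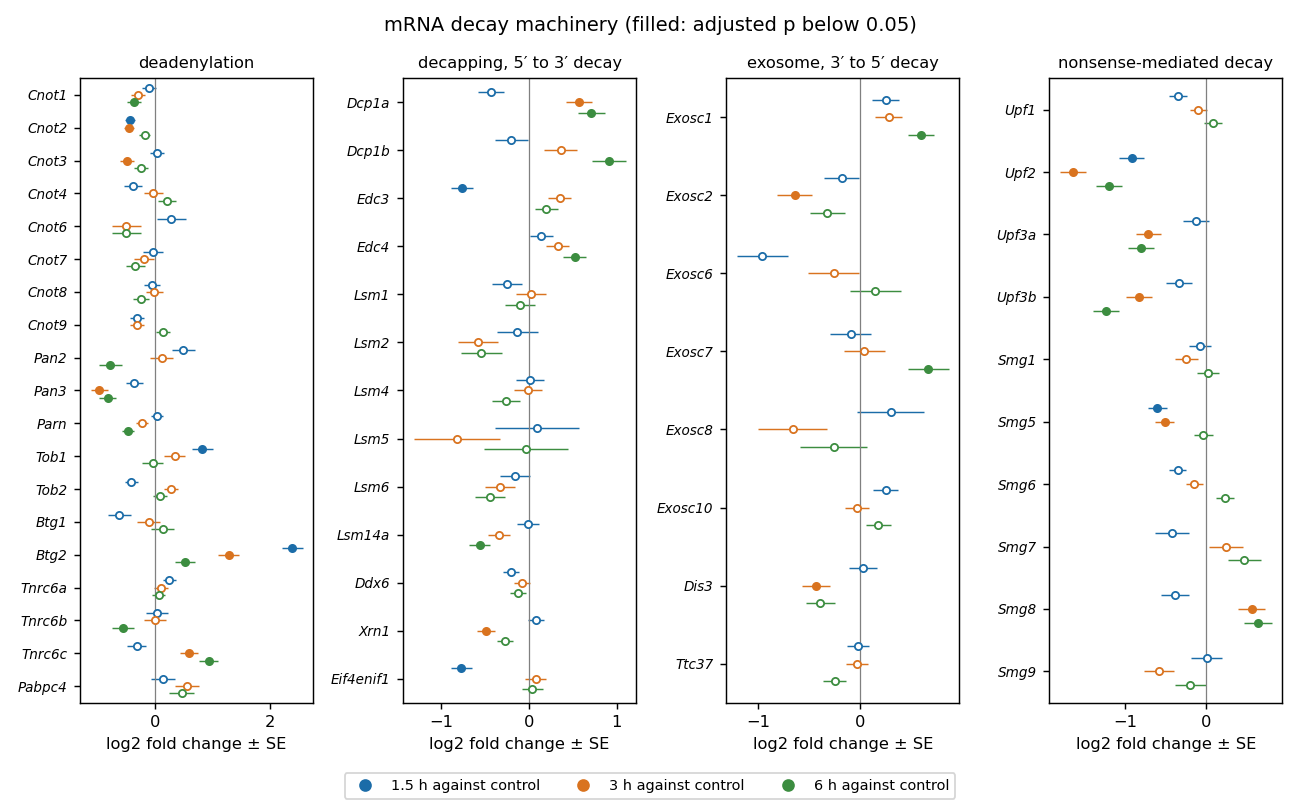
Log2 fold change ± SE (x axis) of each tested mRNA decay gene (y axis) at 1.5, 3 and 6 h against control, in 4 panels by step. Filled points passed an adjusted p of 0.05. Btg2 at 2.38 and Upf2 at -1.65 lie farthest from 0 among the filled points.

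Other proteins that bind the same class of mRNA, or control the poly(A) tail, moved in both directions. Of 26 tested, 1 rose and 1 fell at 1.5 h, 4 rose and 4 fell at 3 h, and 5 rose and 5 fell at 6 h, where 3.32%, 21.4% and 30.5% of all genes passed. Cpeb4, a cytoplasmic polyadenylation element-binding protein, had 167, 145 and 174 CPM in control cells, 325, 286 and 274 CPM at 1.5 h, 426, 412 and 475 CPM at 3 h and 284, 270 and 267 CPM at 6 h. Its groups did not overlap with control, and its highest level was at 3 h (log2 0.86, 1.43 and 0.76, each ± 0.12; edgeR adjusted p = 0.00269, 5.01e-05 and 0.00113). Cpeb1 had 14.1, 14.7 and 14 CPM in control cells, 18, 16.9 and 18 CPM at 1.5 h, 59.7, 62 and 33.1 CPM at 3 h and 54.8, 117 and 114 CPM at 6 h. The libraries that stand apart held the lowest Cpeb1 of their groups at 3 and 6 h, and its log2 changes there were 1.85 and 2.73, each ± 0.3 (edgeR adjusted p = 0.00197 and 0.000223).

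Cpeb2 and Zc3h12c rose with them at 3 h. Cpeb2 averaged 137 ± 20.5 CPM at 3 h and 84.1 ± 9.94 CPM at 6 h, against 50.7 ± 4.87 CPM in control cells (log2 1.43 and 0.73, each ± 0.14; edgeR adjusted p = 0.000146 and 0.00371). Zc3h12c, of the Regnase family, averaged 123 ± 23.2 and 101 ± 10.6 CPM, against 57.6 ± 2.91 CPM (log2 1.1 and 0.81, each ± 0.15; edgeR adjusted p = 0.00085 and 0.0029). Tia1, which binds AU-rich mRNAs in stress granules, fell at 6 h to 7.74 ± 1.16 CPM, against 18.8 ± 3.47 CPM in control cells (log2 -1.28 ± 0.23, edgeR adjusted p = 0.0024). Hnrnpd, the AU-rich element protein AUF1, averaged 198 ± 25, 151 ± 17.8 and 145 ± 5.14 CPM at the 3 times, set against 171 ± 8.15 CPM, without a call. Zc3h12a, the endonuclease Regnase-1, had 82.8, 89.3 and 229 CPM at 1.5 h, against 128, 133 and 154 CPM in control cells, with the high value in the library of high microglia markers, and passed at no time. Elavl1, the stabilising protein HuR, was not analysed here.

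Of 14 tested kinases, phosphatases and 14-3-3 proteins that act on tristetraprolin or its kinases, 2 rose at 1.5 h, 4 rose at 3 h, and 3 rose and 1 fell at 6 h. Of all genes 3.32%, 21.4% and 30.5% passed at these times, so the counts at 3 and 6 h are near the shares of all genes. Map2k3, the kinase that activates p38, averaged 161 ± 17 CPM at 3 h and 111 ± 10.9 CPM at 6 h, against 66.6 ± 7.01 CPM in control cells (log2 1.27 and 0.74, each ± 0.13; edgeR adjusted p = 0.000149 and 0.00194). Its change of 0.6 ± 0.13 at 1.5 h passed (edgeR adjusted p = 0.0313). That call was lost without any 1 control replicate or replicate 1 or 2 at 1.5 h (up to 0.144). It was also lost in the fit of 2 groups with the replicate block (0.103) and with the microglia marker level as a covariate. Ywhag, a 14-3-3 protein, had 1210, 1180 and 760 CPM at 3 h and 877, 1310 and 1240 CPM at 6 h. Control cells held 571, 554 and 514 CPM (log2 0.94 and 1.06, each ± 0.21, edgeR adjusted p = 0.0114 and 0.00386). The libraries that stand apart held the lowest Ywhag of their groups, 760 CPM at 3 h and 877 CPM at 6 h. Mapkapk2, which encodes MK2, had 244, 232 and 410 CPM at 1.5 h, 385, 389 and 432 CPM at 3 h and 482, 378 and 407 CPM at 6 h, set against 298, 316 and 359 CPM, and passed at no time. Mapk14, which encodes p38 alpha, was not analysed here.

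Dusp1, a phosphatase of p38 and JNK whose mRNA is also a tristetraprolin target, had low counts. It held 16.1, 16.5 and 14 CPM at 1.5 h, 18.3, 16.7 and 6.69 CPM at 3 h and 7.7, 12.8 and 11.9 CPM at 6 h, set against 5.05, 5.93 and 5.19 CPM in control cells. All treated libraries exceed the controls (log2 1.52, 1.36 and 1, each ± 0.34; edgeR adjusted p = 0.0396, 0.0206 and 0.0474). With the replicate block the edgeR adjusted p at 1.5 h was 0.0673. With the microglia marker level as a covariate the calls at 1.5 and 6 h were lost. In limma-voom the calls at all 3 times were lost. Over all alternative runs the log2 change at 3 h ran from 0.3 to 1.63. Leaving out any 1 control replicate, or replicate 1 or 2 at 1.5 h or replicate 3 at 6 h, lost the call at 1.5 h (adjusted p up to 0.158). At 3 h it was lost without any 1 control replicate or replicate 1 or 2 at 3 h (up to 0.0829). At 6 h it was lost without any 1 control replicate or replicate 1 or 2 at 1.5 h, 1 or 2 at 3 h, or 2 or 3 at 6 h (up to 0.162).

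Known targets of tristetraprolin were higher after PT109B where they passed the test. Of 37 listed mRNAs, taken from what is known in mice and human cells, 33 were in the table and tested. At 1.5 h 10 rose and 0 fell (30.3% of the list), against 1.95% of all genes higher. At 3 h 19 rose and 0 fell (57.6%), against 13.5% higher, and at 6 h 21 rose and 0 fell (63.6%), against 18.7% higher. In edgeR, 0, 0 and 1 targets were lower with an unadjusted p below 0.05 at the 3 times, and DESeq2 called 0, 0 and 1 lower. Scaled by library size alone, 14 rose and 1 fell at 3 h and 18 rose and 1 fell at 6 h. The list was made with earlier results of these data known, so it is not independent evidence of its direction. The median log2 change of the 33 genes was 0.54, 1.04 and 1.12, beside -0.01, -0.03 and -0.02 over all genes.

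How many targets moved in each direction differed with the libraries kept. Without those 3 libraries, 16 targets rose and 9 fell at 1.5 h, 21 rose and 8 fell at 3 h, and 26 rose and 4 fell at 6 h, where 59.2%, 70.9% and 75.1% of all genes passed in either direction. With only those 3 as treated samples, 19, 20 and 25 rose and 0, 2 and 1 fell. Several listed genes are expressed by microglia, whose markers were lower in replicates 1 and 2 at 1.5 h. The part of the cell mixture in these counts was not tested.

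Lif, a cytokine of the interleukin 6 family, had 53.2, 57.6 and 52.3 CPM in control cells, 923, 885 and 1200 CPM at 1.5 h, 1100, 1090 and 657 CPM at 3 h and 868, 696 and 683 CPM at 6 h. All treated libraries were more than an order of magnitude above the controls (log2 4.21, 4.13 and 3.78, each ± 0.24; edgeR adjusted p = 1.77e-05, 1.1e-05 and 1.34e-05). Ptgs2, which encodes cyclooxygenase 2, had 66.3, 60.2 and 66.8 CPM in control cells, 509, 461 and 455 CPM at 1.5 h, 752, 700 and 217 CPM at 3 h and 245, 530 and 511 CPM at 6 h. The 2 lowest treated values of Ptgs2 came from libraries that stand apart, still above all controls (log2 2.88 ± 0.43, 3.11 ± 0.44 and 2.73 ± 0.43; edgeR adjusted p = 0.00466, 0.00102 and 0.00124).

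Fos, an AP-1 subunit and immediate early gene, had 146, 145 and 71.9 CPM at 1.5 h, against 13.1, 12 and 14.5 CPM in control cells (log2 3.2 ± 0.28, edgeR adjusted p = 0.00011). At 3 h it held 27, 24.9 and 19.1 CPM and at 6 h 21.4, 24.9 and 30.6 CPM, so most of the increase was gone, while these libraries were still above the controls. Its later calls (log2 0.84 and 0.96, each ± 0.26; edgeR adjusted p = 0.0438 and 0.0198) were fragile. The 3 h call was lost without any 1 control replicate, replicate 1 or 2 at 1.5 h, 1 or 2 at 3 h, or 2 or 3 at 6 h (up to 0.142), and the 6 h call without control replicate 1 or 2 or replicate 2 or 3 at 6 h (up to 0.084).

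Myc and Vegfa showed sustained increases with little spread. Myc, a growth-promoting transcription factor, had 140, 142 and 121 CPM at 1.5 h, 132, 141 and 117 CPM at 3 h and 152, 171 and 163 CPM at 6 h, set against 64.1, 62.8 and 63.2 CPM in control cells (log2 1.09, 1.04 and 1.35, each ± 0.11). Vegfa, an angiogenic growth factor, had 60.2, 54.2 and 60.6 CPM at 1.5 h, 90.3, 93.4 and 97.9 CPM at 3 h and 60.1, 59.1 and 53.3 CPM at 6 h, set against 26.5, 25.9 and 34 CPM (log2 1.02 ± 0.12, 1.71 ± 0.13 and 1 ± 0.12). All treated values of both genes exceeded the controls.

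Among cytokines and chemokines of the target list other than Lif, Tnf, Il6, Il23a, Cxcl2, Cxcl3 and Ccl2 passed at 6 h, while Il1b, Il10, Cxcl1, Ccl3, Ccl4 and Ccl20 passed at no time. Tnf, the best known target of tristetraprolin, had 43.1, 37.6 and 52.9 CPM in control cells, 6.44, 9.1 and 47 CPM at 1.5 h, 79.1, 86.2 and 139 CPM at 3 h and 186, 148 and 147 CPM at 6 h. At 1.5 h the libraries with low microglia markers (520 and 519 CPM in sum) held the lowest Tnf, and at 6 h all libraries exceeded the controls. The test was passed at 6 h alone (log2 1.85 ± 0.6, edgeR adjusted p = 0.0403), and the log2 changes at 1.5 and 3 h were -1.1 ± 0.6 and 1.19 ± 0.59. The 6 h call was lost without any 1 of the control, 3 h replicate 1 or 2, or 6 h libraries, with adjusted p up to 0.12.

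Il6, a cytokine with low counts here, had 5.94, 5.02 and 11.6 CPM at 1.5 h, against 3.51, 1.36 and 3.43 CPM in control cells, above every control library but without a call (log2 1.44 ± 0.45, edgeR adjusted p = 0.114). It averaged 10.7 ± 4.33 CPM at 3 h and 21 ± 3.03 CPM at 6 h, against 2.77 ± 1.22 CPM in control cells (log2 1.96 ± 0.45 and 2.93 ± 0.46; edgeR adjusted p = 0.0142 and 0.00122). The 3 h call was lost without replicate 2 at 3 h (adjusted p = 0.0671). Cxcl2, a neutrophil chemokine, had 29.9, 29.2 and 79.8 CPM at 1.5 h, 99.5, 99.3 and 107 CPM at 3 h and 235, 180 and 174 CPM at 6 h, set against 44.5, 35.6 and 36.5 CPM in control cells. Its log2 change was 2.34 ± 0.34 at 6 h, and its 3 h change of 1.39 ± 0.34 (edgeR adjusted p = 0.0175) was lost without control replicate 2 or 3 or replicate 1 or 2 at 3 h (up to 0.0675). Ccl2, a monocyte chemokine, had 3430, 2250 and 2190 CPM at 6 h, against 1330, 1220 and 1320 CPM in control cells (log2 1.02 ± 0.24, edgeR adjusted p = 0.00885). Cxcl3, another neutrophil chemokine, had 54.6, 60.8 and 57.3 CPM at 6 h, against 19.4, 15.9 and 11.1 CPM in control cells (log2 1.9 ± 0.22, edgeR adjusted p = 0.000286). Il23a, a subunit of interleukin 23, averaged 5.27 ± 1.2 CPM at 6 h, against 0.489 ± 0.0954 CPM (log2 3.4 ± 0.56, edgeR adjusted p = 0.00156). Cxcl1 averaged 962 ± 137, 604 ± 22.1 and 643 ± 187 CPM at the 3 times, set against 818 ± 148 CPM, and passed at none of them.

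**Figure D5:**
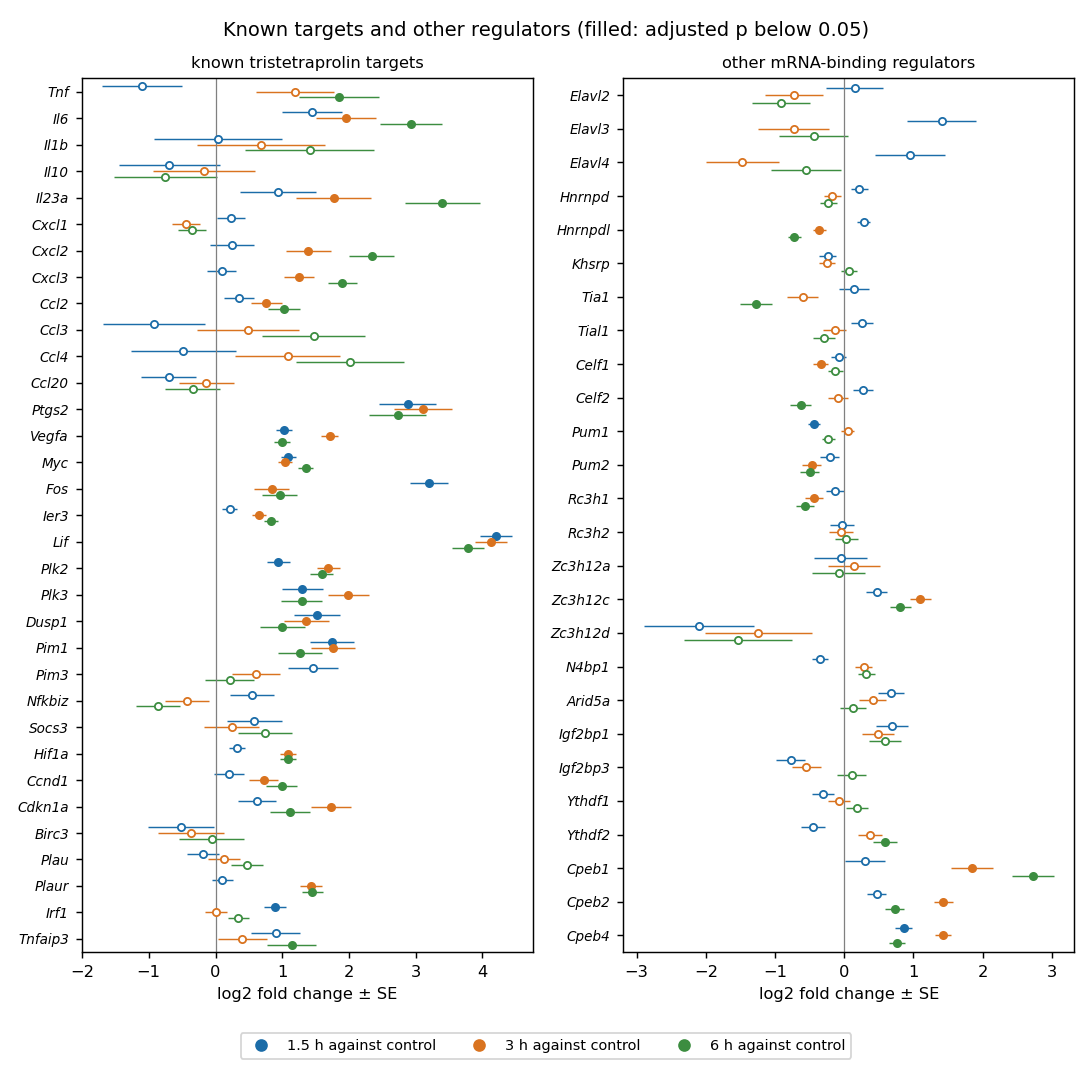
Log2 fold change ± SE (x axis) of each tested known tristetraprolin target (left) and other mRNA-binding regulator (right) at 1.5, 3 and 6 h against control. Filled points passed an adjusted p of 0.05. Every filled target point lies right of 0, with Lif at 4.21, 4.13 and 3.78, while filled regulators lie on both sides.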

How the data were processed

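RNA-seq libraries of 4 groups with 3 replicates each were grouped by the treatment label. Per the file headers, the authors' deposited table holds an estimated count and an FPKM value for each gene in each library. The submitters' processing notes name StringTie 2.2.1, and the sources used here give no aligner, genome build or strand setting. The test had been planned for whole counts, but 9.49% of the deposited counts were fractional, so all were rounded first. The table holds 9721 genes, part of those in a rat genome, so adjusted p-values and scaling refer to this set. Genes were tested in R 4.3.3 with the edgeR 4.0.16 robust quasi-likelihood test, in 1 fit of 12 libraries with TMM scaling, after filterByExpr had removed 230 genes and left 9491. A gene was called at a Benjamini-Hochberg adjusted p below 0.05. The SE comes from the log2 fold change and F value, and FPKM served for levels between genes, ratios and alternative tests. The relative depth of the libraries, from count over FPKM, was 0.88 to 1.18. The scripts were tested on simulated data.

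The family members, gene lists and motifs were chosen with earlier results of these data known. Named genes are the members, per list and comparison up to 4 called genes by size of change and 2 uncalled genes of highest level, a fixed set of well known genes, and the 8 genes most like Zfp36; not every gene that the rule allows is described. Same-numbered libraries deviated together from their group means in control and 1.5 h (r = 0.2, 0.368 and 0.451) and in 1.5 and 3 h (r = 0.179, 0.166 and 0.224). The replicate block is therefore given for these comparisons where it changes a call, although the labels do not say that a number marks a shared culture. Genes called at 1.5 h against control numbered 315, and 201 with the block. Alternatives were other scalings and filters, DESeq2 1.42.0, limma 3.58.1, tests on log2(FPKM + 0.1) and log2(FPKM + 1), fits of 2 groups, the replicate block, the microglia marker level as a covariate, and fits without single libraries or groups of them.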

Additional observations from a re-analysis of the deposited data

How the results depend on the processing

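Zfp36 kept its call under every alternative run at 1.5 h (log2 1.59 to 1.93) and 6 h (0.8 to 1.18) against control and for 6 h against 1.5 h, and Zfp36l1 did at 3 h (0.71 to 1.25). Without the 6 treated libraries of lower microglia level, 1 library per time was left and assumed to vary like the controls: Zfp36 at 3 h was then 0.64, Zfp36l2 -0.13 at 3 h and -0.53 at 6 h. Without the 3 of higher level Zfp36l2 was 0.87 at 1.5 h, 0.38 at 3 h and 0.04 at 6 h. Fitted as 2 groups, Zfp36l1 at 1.5 h was 1.14 and missed the threshold. Zfp36l2 at 3 h was -0.06 scaled by library size, -0.03 by depth and -0.03 on either FPKM scale; these scalings moved the median of all genes by -0.31 (library size) and -0.28 (depth), and left 25.6% and 28.3% of calls higher at 3 h, against 62.9%.

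For 3 h against 1.5 h, Zfp36 was -0.65 with the replicate block, -0.66 in 2 groups and -0.67 in 2 groups with the block, each short of the threshold. Zfp36l1 was -0.07 by upper quartile, -0.23 by library size, -0.2 by depth, -0.05 unfiltered, -0.19 on either FPKM scale and -0.12 with the microglia covariate, 0.34 without the 3 libraries and -0.74 without the 6. Zfp36l2 was -0.66 by library size, -0.5 without the 3 libraries and 0.04 with the covariate. For 6 h against 3 h, Zfp36 was 0.07 by library size, 0.06 by depth, 0.07 on either FPKM scale and 0.34 without the 6 libraries, and without the 3 Zfp36l1 was -0.43 and Zfp36l2 -0.33. For 6 h against 1.5 h, Zfp36l1 was -0.45 by library size and -0.86 without the 6, and Zfp36l2 -0.7 with the block, -0.81 in 2 groups and -0.33 with the covariate.

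Leaving out single libraries gave, against control, 0.91 to 1.23 for Zfp36l1 and 0.52 to 0.87 for Zfp36l2 at 1.5 h, 0.14 to 0.38 for Zfp36l2 at 3 h, 0.67 to 0.9 for Zfp36l1 and -0.25 to 0.13 for Zfp36l2 at 6 h. For 3 h against 1.5 h it gave -0.81 to -0.53 for Zfp36, -0.13 to 0.23 for Zfp36l1 and -0.6 to -0.25 for Zfp36l2; for 6 h against 3 h, -0.23 to 0.02 for Zfp36; for 6 h against 1.5 h, -0.93 to -0.54 for Zfp36l2.

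Called machinery genes at 1.5 h (7) were 11 by library size and by depth, 28 without the 3 libraries, 4 with the covariate and 2 in 2 groups with the block (2 to 11 without single libraries). At 3 h (14) they were 26 by library size, 22 on either FPKM scale and 33 without the 3 (6 to 25), and at 6 h (17) 37 without the 3 (11 to 26). Called targets at 1.5 h (10) were 25 without the 3 and 19 without the 6 (5 to 17), at 3 h (19) 29 without the 3 (12 to 20), and at 6 h (21) 15 to 25 without single libraries.

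All genes called at 1.5 h (315) were 801 in DESeq2, 201 with the block, 5642 without the 3, 186 with the covariate and 133 in 2 groups with the block (115 to 2871). At 3 h (2035) they were 6756 without the 3 and 3069 with the covariate (849 to 3697), and at 6 h (2891) 7154 without the 3 (1741 to 3868). For 3 h against 1.5 h (1929) they were 1243 with the block, 76 in 2 groups, 6655 without the 3, 383 without the 6, 1232 with the covariate and, in edgeR with 2 groups and the block, 0, where 2522 had an unadjusted p below 0.05 and DESeq2 on all libraries called 2800 (422 to 4051). For 6 h against 3 h (384) they were 842 in DESeq2, 159 with the block, 7 in 2 groups, 3251 without the 3, 14 without the 6 and 991 with the covariate (41 to 788). For 6 h against 1.5 h (3571) they were 2142 in 2 groups, 7242 without the 3 and 1600 without the 6 (2257 to 5002). The cause of these moves was not tested. In the other pairs of groups, the r of same-numbered libraries did not keep 1 sign over replicates 1, 2 and 3. It was 0.035, -0.023 and -0.027 for control and 3 h, and -0.005, -0.024 and 0.009 for control and 6 h. For 1.5 and 6 h it was -0.238, 0.168 and -0.239. For 3 and 6 h it was -0.651, 0.599 and -0.657, so there replicate 2 alone deviated together. Of 113 comparisons of other named genes, 71 kept their call under every alternative, 35 lost it without at least 1 library and 0 reversed.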

Other observations

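The annotation text of the table puts Zfp36, Zfp36l1 and Zfp36l2 together in 8 biological processes. These include the MAPK cascade (66 genes in the table), the regulation of mRNA stability (25 genes) and the destabilisation of mRNAs through the 3′ untranslated region (11 genes). Of the 8 other genes in the last process, all tested, 3 passed against control at some time, where 30.5% of all genes passed at 6 h alone, so this count is not set apart from that of other genes. These were chosen by annotation after their values were seen. Rbm24, an RNA-binding protein known from muscle, had 15.8, 16.2 and 13.6 CPM at 1.5 h, against 5.65, 6.64 and 8.36 CPM in control cells (log2 1.14 ± 0.23, edgeR adjusted p = 0.0233), and was also higher at 3 h (1.03 ± 0.23, adjusted p = 0.0114). The 1.5 h call was lost without control replicate 1 or 2 or replicate 1 or 2 at 1.5 h (edgeR adjusted p up to 0.12). It was also lost in a fit of 2 groups with the replicate block (0.113) and with the microglia marker level as a covariate. The 3 h call was lost without control replicate 1 (0.0563).

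Tardbp, which encodes TDP-43, and Rc3h1, which encodes Roquin-1, were lower at 6 h, by a log2 change of -0.73 ± 0.15 (edgeR adjusted p = 0.00489) and of -0.56 ± 0.13 (adjusted p = 0.00926). At 3 h the changes were -0.49 ± 0.15 and -0.44 ± 0.13, and both calls were lost without any 1 control replicate, replicate 1 or 2 at 1.5 h or replicate 1 or 2 at 3 h (up to 0.132 for Tardbp and 0.137 for Rc3h1). Hnrnpd, Zc3h12a, Mov10, Zc3h12d and Upf1, the other genes of the process, did not pass at any time.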
